A study of Phyllostachys violascens with 6 samples.

Results

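The 100 unigenes described here had their highest level in a single library, replicate 1 of the yellow culm of the bamboo Phyllostachys violascens cv. Viridisulcata, out of 63776 unigenes in the deposited count table. A unigene is an assembled transcript cluster that stands for 1 gene in a species without a reference genome. Members were chosen on the CPM of each library, which is a count divided by the library total and multiplied by 1000000. A unigene needed at least 1 CPM in culm replicate 1 and over 3 times the CPM of every other library there. The 265 unigenes that met this were ranked by the log2 ratio of culm replicate 1 to the highest other library, with 0.5 CPM added to both, and the top 100 were taken. The level in culm replicate 1 and its excess over the other libraries therefore define the members and are given as a description without a test.

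The study asked which genes differ between the 2 colours of 1 internode. It sequenced RNA from 3 libraries of yellow culm and 3 libraries of green sulcus, the groove that runs along the internode. All 6 came from wild-type plants of the cultivar Viridisulcata, sampled at the longest internodes, and plant age was not given. The replicates were described as biological, without saying which libraries came from the same plant.

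Plants answer wounding, microbes and other stress with a fast and transient set of transcripts. It includes WRKY, bHLH and MYB transcription factors, enzymes that make the gas hormone ethylene, and secreted chitinases and glucanases that attack fungal cell walls. Phenolic amides, made by hydroxycinnamoyltransferases, are also part of this answer in grasses.

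The libraries held 16405396 to 22505338 counts. Green tissue was checked with 12 photosynthesis unigenes, which summed to 1043, 1382 and 2398 CPM in culm replicates 1 to 3, against 5919, 4985 and 2963 CPM in sulcus replicates 1 to 3. None of the 12 was at 0 in any library. The sums did not overlap between tissues, and 11 of the 12 were higher in every sulcus library than in every culm library. These 12 come from tables that the study picked in part on the same libraries, so they are no independent check of the labels. Culm replicate 1 had the lowest photosynthesis sum of the 6, and the part of this in the members' levels was not tested. In bulk tissue, fewer cells of a type and less RNA per cell cannot be told apart.

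Together the 100 unigenes reached 3723 CPM in culm replicate 1, which was 0.372% of its counts. They summed to 499 CPM in culm replicate 2 and 211 CPM in culm replicate 3, against 662, 310 and 174 CPM in sulcus replicates 1 to 3. The median member had 18.6, 1.71 and 0.533 CPM in culm replicates 1 to 3, against 2.71, 0.875 and 0.486 CPM in sulcus replicates 1 to 3. Replicate 1 was the highest in sulcus, and replicate 3 was the lowest in both tissues. In culm, the choice of members fixed replicate 1 as the highest.

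**Figure D1:**
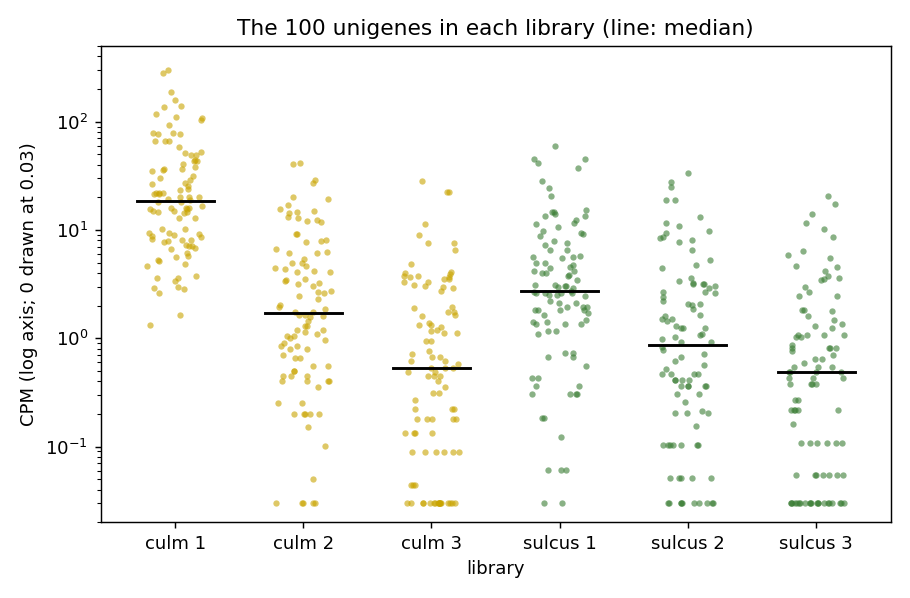
CPM of each of the 100 unigenes (points, log axis, with 0 drawn at 0.03) in the 6 libraries, with the median as a line. The medians are 18.6, 1.71 and 0.533 CPM in culm replicates 1 to 3 and 2.71, 0.875 and 0.486 CPM in sulcus replicates 1 to 3.

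Levels in culm replicate 1 ran between 25 and 5617 counts per member, with a median of 351. In that library 67 members reached 10 CPM, 10 reached 100 CPM and 13 had under 100 counts. The ratio to the highest other library ran between 3.38 and 35.1, with a median of 5.04, over the 98 members that had a count elsewhere. Across the other 5 libraries 19 members stayed under 1 CPM.

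The same condition was applied to each library in turn. It was met by 265 unigenes in culm replicate 1, 3 in culm replicate 2 and 37 in culm replicate 3, against 23, 7 and 29 in sulcus replicates 1 to 3. Culm replicate 1 thus held more unigenes of this kind than the other 5 libraries together.

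**Figure D2:**
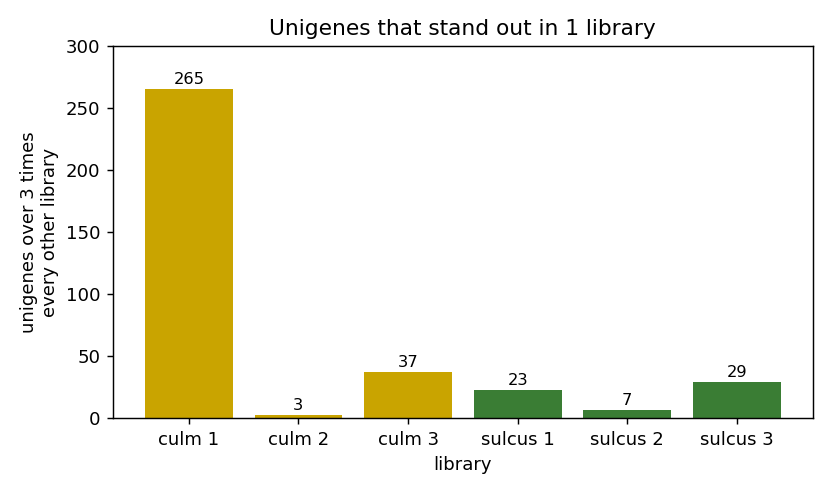
Number of unigenes (bars) with at least 1 CPM in a library and over 3 times the CPM of each of the other 5. Culm replicate 1 has 265, and the other libraries have between 3 and 37.

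Cluster-20.0 ranked first. It had 167 counts (8.85 CPM) in culm replicate 1 and 0 counts in each of the other 5 libraries. Against a floor of 3 counts in the smallest library, this was at least 48.4-fold higher. Cluster-4806.3988 was the other member at 0 outside culm replicate 1, with 25 counts there and at least a 7.24-fold excess over the same floor. These limits cover counting error only.

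Cluster-5995.0, second in rank, had 30.3, 1.15 and 0 CPM in culm replicates 1 to 3, against 1.65, 1.03 and 0 CPM in sulcus replicates 1 to 3. Cluster-10536.0 had 23.3, 1.20 and 0 CPM in culm, against 1.71, 0.206 and 0 CPM in sulcus. Both were thus present in replicates 1 and 2 of each tissue and at 0 in replicate 3. Cluster-5354.0 had 25.7, 0.853 and 0 CPM in culm, against 2.68, 0 and 0.216 CPM in sulcus.

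Cluster-4806.21578 differed from these. It had 116.9, 12.4 and 11.3 CPM in culm replicates 1 to 3, against 13.4, 13.2 and 11.6 CPM in sulcus replicates 1 to 3. Its 5 libraries outside culm replicate 1 thus lay close together, with replicate 3 of each tissue no more than slightly below the rest. Cluster-4806.3809 had 77.98, 9.08 and 0.0889 CPM in culm, against 7.98, 3.40 and 0.108 CPM in sulcus, so that replicate 3 of both tissues was far below replicates 1 and 2.

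Among the other first 10, Cluster-4806.41619 had 7.05, 0.201 and 0.133 CPM in culm, against 0.183, 0.0515 and 0.108 CPM in sulcus, the largest ratio among members with a count elsewhere. Cluster-4806.42132 had 8.26 CPM in culm replicate 1 and 0.427 CPM in sulcus replicate 1, and was at 0 in the other 4 libraries. Cluster-8707.0 had 6.68, 0.201 and 0 CPM in culm, against 0.305, 0 and 0 CPM in sulcus. None of the 3 has an annotation at hand. The seventh in rank, Cluster-4806.3836, carried an F-box protein annotation and is described with the annotated members.

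At the lower end, Cluster-11086.0 (rank 99) scored 1.73 and Cluster-4896.0 (rank 100) scored 1.72. Cluster-4806.16490 and Cluster-4806.19475, the next 2 unigenes outside the list, both also scored 1.72. The end of the list is therefore not a step in the data.

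Outside culm replicate 1, the condition put the same ceiling on each library and did not set their order. Sulcus replicate 1 was the highest of the 5 for 65 members, where it was the highest for 24.6% of the 27400 unigenes with at least 1 CPM in culm replicate 1. Culm replicate 2 was the highest for 27 members (background 12.3%) and culm replicate 3 for 5 members (background 26.4%). Sulcus replicate 2 was the highest for 1 member (background 18.4%) and sulcus replicate 3 for 0 members (background 18.3%).

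**Figure D3:**
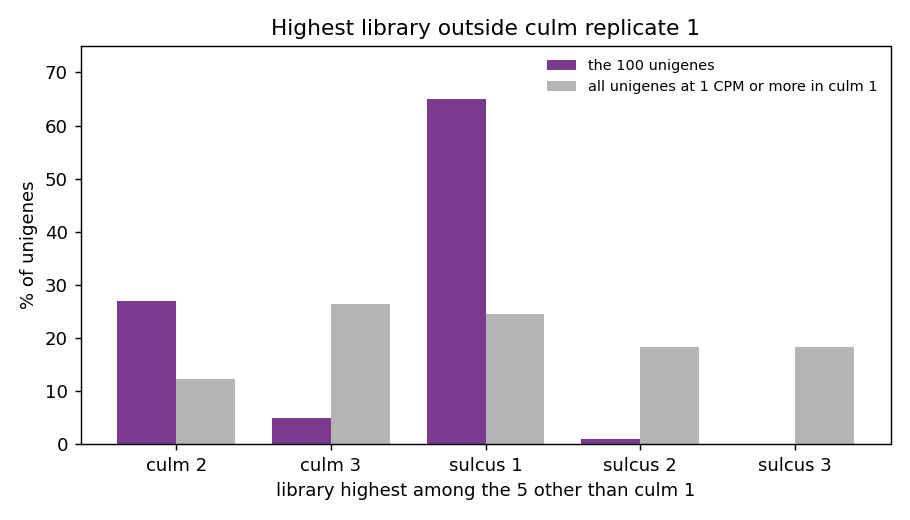
Percent of unigenes (bars) for which each library is the highest of the 5 other than culm replicate 1, for the 100 unigenes and for the 27400 unigenes with at least 1 CPM in culm replicate 1. Sulcus replicate 1 stands at 65% of the members against 24.6%, and culm replicate 3 at 5% against 26.4%.

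Within the sulcus, replicate 1 was above both other replicates for 85 of the 100 unigenes, against a background of 33.0%. It was over 3 times both, with 0.5 CPM added, for 21 members, against 1.97%. Within the culm, replicate 2 was above replicate 3 for 77 members, against 39.2%, and over 3 times it for 32 members, against 1.99%. The members thus differed among replicates of 1 tissue in libraries that the condition treated alike.

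The members divided by which library came next after culm replicate 1. The 65 with sulcus replicate 1 next had medians of 18.1, 1.20 and 0.444 CPM in culm, against 2.74, 0.463 and 0.432 CPM in sulcus, and 8 of them had an entry in the annotation tables. The 27 with culm replicate 2 next had medians of 29.1, 6.12 and 0.667 CPM in culm, against 2.62, 2.62 and 0.540 CPM in sulcus, and 15 of them had an entry. All 5 with culm replicate 3 next had one. Those tables list unigenes that the study picked in part on the culm to sulcus difference in these libraries, so the share with an entry is not independent of the levels in culm.

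**Figure D4:**
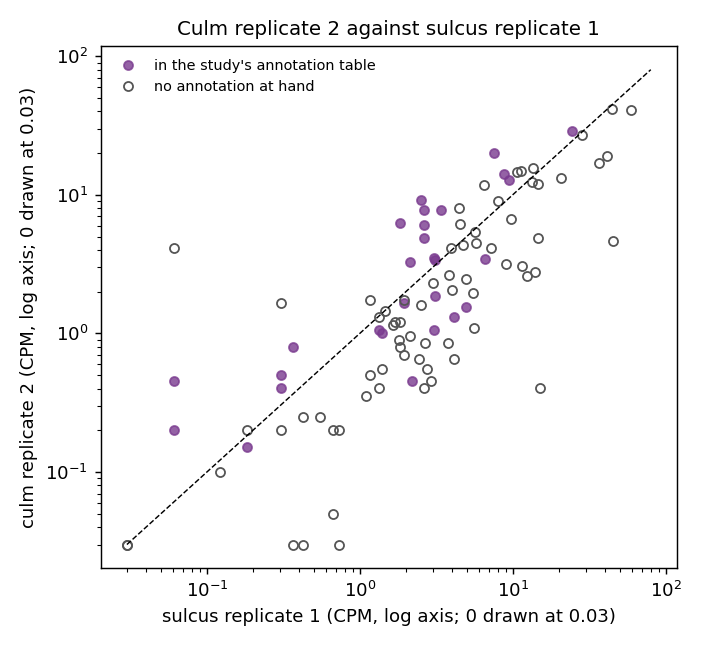
CPM in culm replicate 2 against CPM in sulcus replicate 1 for the 100 unigenes (log axes, 0 drawn at 0.03, dashed line of equal level), with filled points for unigenes in the study's annotation tables. Culm replicate 2 is above sulcus replicate 1 for 30 members (42.9% of the 27400 unigenes with at least 1 CPM in culm replicate 1) and below it for 68.

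Annotations were at hand for 434 unigenes, 0.681% of the table, of which 28 were members. A protein name or domain was given for 27 of them, and 72 members had no annotation at hand. The annotated members are described by role, and the roles come from proteins of Arabidopsis, rice and other plants that the unigenes resemble.

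Ethylene synthesis was represented by 2 unigenes for 1-aminocyclopropane-1-carboxylate (ACC) oxidase, the enzyme of the last step to ethylene. Cluster-4806.43905 had 43.5, 7.83 and 1.11 CPM in culm, against 3.41, 2.42 and 0.540 CPM in sulcus. Cluster-4806.43906 had 29.1, 6.07 and 0.755 CPM in culm, against 2.62, 0.926 and 0.378 CPM in sulcus. The choice of members did not fix the order of culm and sulcus within replicates 2 and 3. The annotation tables, however, were picked in part on the culm to sulcus difference in these libraries. In both ACC oxidases, culm was above sulcus within replicates 2 and 3, and replicate 3 was the lowest of each tissue. Their identifiers are consecutive, and both had whole counts in all 6 libraries, where reads shared among transcripts can give fractions. A mitogen-activated protein kinase kinase kinase, Cluster-4806.5461, which resembles the tobacco kinase NPK1, had 19.25, 4.92 and 0.489 CPM in culm, against 2.62, 2.21 and 0.216 CPM in sulcus. It followed the same order of libraries as the ACC oxidases. Receptor kinases, which were grouped with these by role, had no member. Of the 10 in the annotation tables, 0 passed the condition. Culm replicate 1 was the highest library for 7 of the 10, against 43.1% of all 434 annotated unigenes.

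Unigenes grouped as transcription factors by protein name or domain numbered 7. WRKY proteins bind the W box in promoters and act widely in defence. The WRKY53-like Cluster-13721.1 had 15.8, 0.451 and 1.33 CPM in culm, against 2.19, 0.463 and 1.24 CPM in sulcus, and the WRKY51-like Cluster-4806.19433 had 15.9, 3.36 and 3.78 CPM in culm, against 3.11, 1.49 and 3.51 CPM in sulcus. Outside culm replicate 1, neither held culm above sulcus in every replicate number by a clear margin. Of the 10 WRKY unigenes in the annotation tables, 8 were highest in culm replicate 1, 4 passed the condition and 2 were members. Of all 434 annotated unigenes 43.1% were highest in that library, and these tables were picked in part on the same libraries, so the family count is a description.

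The bHLH92-like Cluster-4806.3935 had 27.1, 7.73 and 1.96 CPM in culm, against 2.62, 1.65 and 1.08 CPM in sulcus. In Arabidopsis, bHLH92 is known as a stress-responsive basic helix-loop-helix factor. Another bHLH92-like unigene in the annotation tables did not pass the condition. It had 19.9, 11.3 and 0.267 CPM in culm, against 1.46, 2.26 and 0.162 CPM in sulcus. Cluster-11640.0, which carried only a helix-loop-helix domain, had 2.86, 0.150 and 0.0444 CPM in culm, against 0.182, 0.0515 and 0 CPM in sulcus, a few counts outside culm replicate 1. A unigene was counted as bHLH by its protein name or where this domain was its only one, which left out Cluster-4806.41560, a member with the same domain beside others.

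HY5 is a bZIP factor that in Arabidopsis promotes light-dependent development. Its match, Cluster-4806.35919, had 76.1, 20.1 and 22.5 CPM in culm, against 7.50, 19.0 and 14.1 CPM in sulcus. Sulcus replicate 1 was here the lowest library, unlike most members, and the ratio of 3.38 to the highest other library was the smallest of all. DIVARICATA is a MYB protein of flower symmetry in Antirrhinum, and Cluster-4806.42273, which resembles it, had 18.1, 1.30 and 3.78 CPM in culm, against 4.14, 0.720 and 1.46 CPM in sulcus. Cluster-11343.0 had no protein name and was grouped here only by a CCT motif, which does not establish it as a transcription factor. It had 6.15, 0.803 and 0 CPM in culm, against 0.366, 0.257 and 0.0540 CPM in sulcus. AP2/ERF factors, which include responders to ethylene, had no member. All 5 in the tables were highest in culm replicate 1, against the same 43.1%, and 1 passed the condition.

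Defence-type hydrolases numbered 3. The glucan endo-1,3-beta-glucosidase Cluster-4806.2906, of a family that cuts callose and fungal wall glucan, had 34.7, 9.18 and 3.11 CPM in culm, against 2.50, 3.60 and 1.30 CPM in sulcus. Chitinase, which cuts fungal chitin, was represented by Cluster-12900.1 with 12.9, 3.26 and 1.65 CPM in culm, against 2.13, 1.29 and 0.810 CPM in sulcus. The other chitinase in the annotation tables did not pass the condition and was not a member. It had 12.5, 9.13 and 1.47 CPM in culm, against 2.32, 1.96 and 0.648 CPM in sulcus. A secretory protease, Cluster-6486.0, had 26.5, 1.56 and 2.89 CPM in culm, against 4.94, 0.463 and 0.756 CPM in sulcus. All 3 were higher in culm than in sulcus within replicates 2 and 3. The choice of members did not fix this order. The annotation tables were, however, picked in part on the culm to sulcus difference in these libraries.

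Among enzymes, a hydroxycinnamoyltransferase-like unigene matched both a putrescine hydroxycinnamoyltransferase and rosmarinate synthase, so the compound it acts on is not settled. This unigene, Cluster-4806.9646, had 76.2, 14.2 and 3.29 CPM in culm, against 8.78, 11.7 and 1.84 CPM in sulcus. Its neighbour in the numbering, Cluster-4806.9645, without an annotation at hand, had 66.4, 11.7 and 2.71 CPM in culm, against 6.46, 8.59 and 1.08 CPM in sulcus. Both had the same order of the 6 libraries, and both had whole counts in each of them. The other hydroxycinnamoyltransferase unigene in the annotation tables was not a member. It was highest in sulcus replicate 3, at 419 CPM, against 133 CPM in culm replicate 1.

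Cluster-6045.0, a 3-ketoacyl-CoA synthase of the kind that lengthens fatty acids for wax, had 2.97, 0.502 and 0.311 CPM in culm, against 0.305, 0.360 and 0.162 CPM in sulcus. Cluster-13060.0, with the domain of alternative oxidase, a mitochondrial enzyme that passes electrons to oxygen, had 8.64, 1.66 and 0.533 CPM in culm, against 1.95, 0.412 and 0.216 CPM in sulcus. The SRG1-like Cluster-4896.0 had 2.91, 0.201 and 0.533 CPM in culm, against 0.0610, 0.213 and 0.270 CPM in sulcus. These 3 were low everywhere outside culm replicate 1.

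The MATE efflux protein Cluster-4806.483, the only member grouped as a transporter, had 31.6, 3.46 and 3.51 CPM in culm, against 6.58, 1.85 and 3.57 CPM in sulcus. MATE proteins move organic compounds out of the cytosol. Of the other transporters in the tables, 1 of 4 ABC unigenes and the 1 WAT1 unigene passed the condition without being members.

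**Figure D5:**
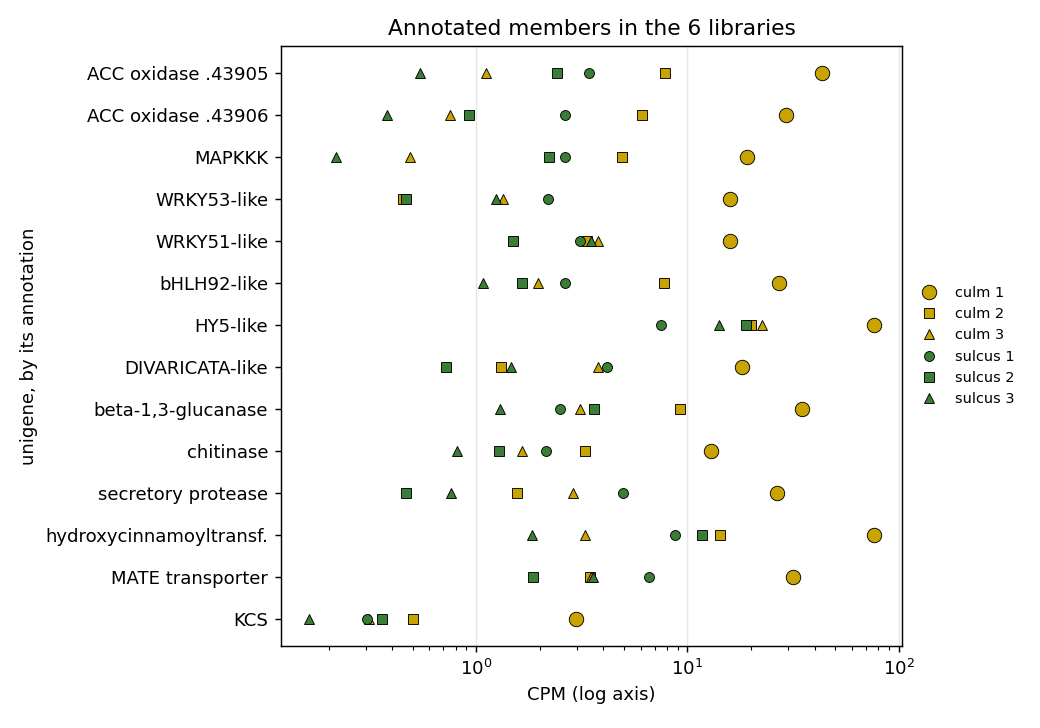
CPM (log axis) of 14 annotated members in culm replicates 1 to 3 (yellow) and sulcus replicates 1 to 3 (green), with circles for replicate 1, squares for replicate 2 and triangles for replicate 3. Culm replicate 1 is the rightmost point in each line, as the choice of members requires, and the HY5-like unigene has sulcus replicate 1 as its lowest point.

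The remaining 9 annotated members had no clear role. The F-box protein Cluster-4806.3836, of a type that marks proteins for degradation, had 15.0, 1.05 and 0.444 CPM in culm, against 1.34, 0.463 and 0.540 CPM in sulcus. Cluster-12064.0, named after an uncharacterized Arabidopsis protein of the UPF0481 family, had 40.7, 6.27 and 0.933 CPM in culm, against 1.83, 3.14 and 1.62 CPM in sulcus. Cluster-4806.41560, with domain matches to AsnC-type helix-turn-helix, glycerol-3-phosphate acyltransferase and helix-loop-helix proteins, had 135, 28.9 and 7.55 CPM in culm, against 24.3, 18.9 and 5.89 CPM in sulcus, the highest annotated level. The other 6, Cluster-15138.0, Cluster-4806.22158, Cluster-12259.0, Cluster-4806.14361, Cluster-4806.3440 and Cluster-7886.0, matched uncharacterized proteins and had 4.66 to 49.2 CPM in culm replicate 1. Domain matches of Cluster-15138.0 included a ZIP zinc transporter and a tetraspanin. Those of Cluster-4806.22158 were to ribosomal protein L4/L1 and a Fragile X-related protein. These domains were not used to assign a role.

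Annotated unigenes as a whole leaned to the same library. Of the 434 with an annotation at hand, 187 (43.1%) were highest in culm replicate 1, against 25.5% of the 27400 unigenes with at least 1 CPM there. As the tables were picked in part on these libraries, this is no independent evidence.

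Features outside expression were also counted. A fractional count, which can arise where reads are shared among transcripts, was present in at least 1 library for 28 members, against a background of 44.8%. Identifiers of the large assembly group Cluster-4806 were carried by 60 members, against 88.6%. Consecutive identifiers joined 12 members into 6 pairs, and members of such a pair may be parts of 1 gene.

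Whether the members differed between tissues without the library that chose them was tested with culm replicates 2 and 3 against sulcus replicates 1 to 3. Of the 100, 77 passed the filter on low counts, and edgeR's quasi-likelihood test called 0 of them, where it called 0.0% of 33589 unigenes in either direction. A call needed a Benjamini-Hochberg adjusted p below 0.05 together with a log2 fold change over 1 or under -1. At an unadjusted p below 0.05 with the same fold, edgeR found 0 members higher and 0 lower (background 0.223% and 0.271%). DESeq2 also called 0 members, where it called 2 of 33576 unigenes higher and 12 lower. Limma voom called 0 members and 0 of all unigenes. At an unadjusted p below 0.05 with the same fold, DESeq2 had 1 member lower, against 137 of 33576 unigenes. The log2 fold change of culm over sulcus was above 0 for 39 of the 77, against 51.3% of all unigenes, and its median was 0.02, against 0.01. These values rested on single libraries. Without culm replicate 2, 14 of 84 members were above 0 (median -1.19), against 17742 of 36453 unigenes (median -0.01). Without sulcus replicate 3, 16 of 77 members were (median -0.28), against 15596 of 32499 unigenes (median -0.01). Without sulcus replicate 1, 57 of 63 members were (median 0.62), against 17333 of 32910 unigenes (median 0.01).

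Replicate numbers mattered for this test, since libraries with the same number deviated together in both tissues. Once the replicate number entered as a block, 14 members of the 77 were called higher in culm by edgeR (background 0.22%) and 1 lower (background 0.179%). The log2 fold change was then above 0 for 69 members, against 52.7% of all unigenes, with a median of 0.60. With culm replicate 1 left out, the block compares culm with sulcus only in replicates 2 and 3. It leaves 1 residual degree of freedom, so the spread came almost wholly from other unigenes. Whether that spread holds for the members, chosen for a large difference in 1 library, was not tested. Limma voom with the block also called 14 members higher, where it called 69 of 33589 unigenes higher. DESeq2 with the block called 0 of edgeR's 14, where it called 10 of 33589 unigenes higher.

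The bHLH92-like Cluster-4806.3935 had a blocked log2 fold change of 1.70 (SE 0.34, edgeR adjusted p = 0.000136) and the glucanase Cluster-4806.2906 one of 1.35 (SE 0.29, adjusted p = 0.000565). The ACC oxidases Cluster-4806.43905 and Cluster-4806.43906 had 1.55 and 2.24, and the secretory protease Cluster-6486.0 had 1.85. These are the members with an annotation among the 14 called higher. The annotation tables were picked in part on culm against sulcus in these libraries, so these calls are not independent of that choice. Cluster-4806.3671, without an annotation at hand, had the smallest edgeR adjusted p of the members, at 1.74 (SE 0.28, adjusted p = 3.25e-07). Its adjusted p from DESeq2 with the block was 0.0775. For each annotated member among the 14, DESeq2 with the block gave an adjusted p of 0.999991. All 14 were above sulcus in culm within replicate 2, and 10 of the 14 within replicate 3. The blocked fit compares the tissues only within these replicates, so these counts restate the calls and are no further evidence. Cluster-4806.16847, without an annotation at hand, was the member called lower by edgeR, at -1.09 (SE 0.31, adjusted p = 0.0384). It had 65.7, 0.401 and 2.98 CPM in culm, against 15.2, 1.23 and 5.51 CPM in sulcus. Neither limma voom with the block (adjusted p = 0.234) nor DESeq2 with the block (adjusted p = 0.999991) called it. Without the block, none of these 15 passed.

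Over all members, culm was above sulcus for 84 of 100 in replicate 2 (background 44.5%) and for 54 in replicate 3 (background 59.2%). The difference in replicate 2 had a median of 0.60 on the log2 scale with 0.5 CPM added, against -0.03 over all unigenes, and that in replicate 3 a median of 0.08, against 0.05. In replicate 2, 5 members were equal in both tissues and 11 lower in culm, and in replicate 3, 13 were equal and 33 lower. In replicate 3, 31 members in culm and 35 in sulcus had 3 counts or fewer, so little can be read from the order there, and the difference between the replicates was not tested.

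The comparison of all 6 libraries included the library that chose the members, and nothing is read from it. It called 0 members and 0.0% of 31936 unigenes in either direction with edgeR, with 5 members higher at an unadjusted p below 0.05 (background 0.338%). DESeq2 and limma voom called 0 members there too, and edgeR with the replicate block called 9 members higher (background 0.0689%).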

How the data were processed

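RNA from 3 culm and 3 sulcus samples was sequenced as paired-end reads by the authors, assembled with Trinity and clustered with Corset. The values used are the estimated counts deposited by the authors per unigene, not normalized and in part fractional; the counting tool was not given in the sources used here, and the submitters' processing notes name DESeq. Samples were grouped by the labels' tissue. CPM was each count over the library total. The members and gene lists were chosen with earlier results of these data known, and 1 unigene is not reported here.

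Counts were rounded and tested with edgeR 4.0.16 (TMM, filterByExpr minimum count 10, quasi-likelihood test, Benjamini-Hochberg over all unigenes kept) in R 4.3.3. SE was the log2 fold change over the root of F. DESeq2 1.42.0, limma voom 3.58.1, other filters, leaving out each library and a replicate block were alternatives. The scripts were tested on simulated data. Named members are those with an annotation, the 10 highest in rank and the 2 on each side of the end of the list. A few others were named after their values were seen: Cluster-4806.3988, Cluster-4806.9645, Cluster-4806.3671 and Cluster-4806.16847.

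The pairing was checked on 32004 unigenes: deviations from the tissue mean correlated at 0.684 to 0.831 between libraries with the same replicate number and at -0.667 to -0.119 otherwise. Such deviations sum to 0 within a tissue. The negative values therefore follow on balance from the positive ones and add no further evidence. The pairing thus comes from the values, since no source used here says what such libraries share. Without the block, p-values rest in part on the spread between these libraries and treat those with the same replicate number as independent. With the block and culm replicate 1 left out, they rest almost wholly on the spread of other unigenes.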

Additional observations from a re-analysis of the deposited data

How the results depend on the processing

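Other ways to choose the list (0.1 or 1 CPM added, a minimum of 5 CPM, rounded counts, TMM or RLE sizes) shared 76 to 100 of the members. In the comparison without culm replicate 1, DESeq2 called 2 unigenes higher and 12 lower. With the replicate block, edgeR called 74 higher and 60 lower, DESeq2 10 and 18, and limma voom 69 and 58; both DESeq2 with the block and limma voom with it were chosen after seeing the data. With the replicate block, members called were 14 higher and 1 lower by edgeR and 14 higher by limma voom, and 69 members (edgeR, DESeq2) or 70 (limma voom) had a log2 fold change above 0. Each library was also left out in turn. With culm replicate 2 omitted, 14 of 84 members were above 0, the lowest number (17742 of 36453 unigenes). With sulcus replicate 1 omitted, 57 of 63 were, the highest (17333 of 32910 unigenes). The members' median ran between -1.19 and 0.62, with -0.13 without sulcus replicate 2 and -0.28 without sulcus replicate 3. Without a filter the median was -0.027. The cause was not tested. Leaving out 1 library gave 0 calls in every case, among members and all unigenes. With all 6 libraries, DESeq2 called 10 higher and 18 lower, and edgeR without a filter 2 lower. EdgeR with the replicate block called 22 higher, 9 of them members, and 19 lower, with 0 members. Culm replicate 1 chose the members, so nothing is read from these member counts. The WRKY53-like Cluster-13721.1, at -0.55, turned to 0.049 with the replicate block, 0.040 with DESeq2 and the block, 0.044 with limma voom and the block, and 0.066 without sulcus replicate 1, the highest value with 1 library left out (lowest -1.43). Without culm replicate 2, the ACC oxidases Cluster-4806.43905 and Cluster-4806.43906, at 1.13 and 1.44, turned to -1.002 and -0.85, and their highest values with 1 library left out were 1.96 and 2.44. With few counts outside culm replicate 1, differences among the other libraries are imprecise for low members.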
